A study of Mus musculus with 12 samples.

Results

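Dystrophin and the membrane proteins that work with it were followed by 8 genes: Dmd, Utrn, Dag1, Sgca, Sgcb, Sgcd, Dysf and Cav3. Members were all probe sets, the groups of short probes that measure 1 transcript, that the array's probe-to-gene table lists under these symbols. There were 11 of them, for 7 of the 8 genes, out of 12488 on the array; no probe set was listed for Dysf, the membrane repair protein dysferlin. All 11 were found in RefSeq by gene number, under the same symbol. RNA was measured on 12 MG_U74Av2 oligonucleotide arrays of mouse 2C5/7 cells, 3 for each of 4 groups. These cells are a fibroblast line derived from embryos, and every group, hrGFP included, lacks functional MyoD and Myf5 genes. A retrovirus had brought in MyoD, Myf5 or myogenin, each made from the viral LTR promoter together with the green fluorescent protein hrGFP, or hrGFP alone. Per the labels, cells were sorted by green fluorescence as an uncloned population, were estimated at 75 to 85% positive, and were grown attached in medium with 10% fetal calf serum. MyoD, Myf5 and hrGFP arrays are numbered 3, 4 and 5 in the labels and myogenin arrays 2, 3 and 6, and values are given in that order. The labels do not tell whether the arrays of a group came from separate cultures. Every p-value here thus reflects only the spread between arrays, which may be technical. Controls, per the labels, are myogenin and hrGFP, and the question is which genes MyoD or Myf5 changes where the cells' own copies are missing.

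Dystrophin is a long rod under the muscle cell membrane that ties the actin cytoskeleton to a complex in the membrane, and utrophin is its relative in many other cell types and at the neuromuscular junction. Dystroglycan spans the membrane and binds laminin outside, the sarcoglycans stand beside it as a subcomplex of several transmembrane chains, and caveolin-3 is the caveolin of muscle. Loss of dystrophin, of a sarcoglycan, of dysferlin or of caveolin-3 causes muscular dystrophies. Alpha-sarcoglycan, coded by Sgca, is largely restricted to striated muscle, whereas beta- and delta-sarcoglycan and dystroglycan are made more widely.

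The deposited signals had medians of 16.3 to 35.9 per array. Differences are between group means of quantile-normalized log2(signal + 6.33), with the standard error (SE) of limma and n = 3 arrays against 3. Benjamini-Hochberg adjustment covered the 8485 probe sets with a signal above 15 in at least 3 arrays, and those with an adjusted p under 0.05 count as called. The added 6.33 makes changes of low signals look smaller. Of the 11 muscle markers limma called 9 as higher with MyoD against hrGFP, 1 with Myf5 and 1 with myogenin. The median difference over the 11 was 3.63 with MyoD, 0.71 with Myf5 and 1.12 with myogenin. Single differences ran from -0.61 to 6.19 with MyoD, -0.02 to 2.98 with Myf5 and 0.59 to 3.75 with myogenin. The 11 include Myog, which codes for myogenin, the very factor that the retrovirus supplied in the myogenin group. In that group Myog lay 1.12 above hrGFP (limma adjusted p = 0.386). It enters the group's median and summed signal, where it is no independent sign of a muscle state. Whether its probe set reads the introduced copy was not tested. The 2 of the 11 not called with MyoD were the creatine kinase gene Ckm (-0.61) and the desmin gene Des (0.92, limma adjusted p = 0.877). The summed signal of these markers was 2640 to 3910 on MyoD arrays, 222 to 648 on Myf5 arrays, 479 to 1320 on myogenin arrays and 102 to 188 on hrGFP arrays. The 12 fibroblast markers summed to 5620 to 11600 on MyoD arrays, 6670 to 9730 on Myf5 arrays, 9700 to 11600 on myogenin arrays and 5280 to 13500 on hrGFP arrays, and limma called none of them against hrGFP. With myogenin the collagen genes Col1a1 (1.29, limma adjusted p = 0.0832), Col1a2 (0.94), Col5a1 (0.8) and Col6a1 (1.3) still lay above every hrGFP array after normalization. Other fibroblast markers had lower means with myogenin than with hrGFP: Pdgfra (-0.68), Twist1 (-0.59), S100a4 (-0.34) and Vim (-0.11). The median difference over the 12 was 0.34 with myogenin. Col1a1 was called for MyoD against myogenin (-1.55, limma adjusted p = 0.0274). Of the 6 endothelial markers 1 passed the filter, as did 3 of 7 leukocyte, 2 of 5 epithelial, 3 of 6 neural and 4 of 6 smooth muscle markers, and 0 of these were called against hrGFP. Arrays MyoD 5 and hrGFP 5 stood apart in RNA quality, with 3′ to 5′ signal ratios of 25.7 and 37.6 for the beta-actin control and 32.4 and 33 for the Gapdh control, against 0.968 to 1.11 and 0.786 to 1.03 on the other 10 arrays. Chip lot and hybridization day split the arrays into 3 batches, the first with arrays 3 and 4 of each group except myogenin, another with their arrays 5, and the last with every myogenin array.

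Sgca, which codes for the muscle sarcoglycan, rose with MyoD on 1 of its 2 probe sets. This probe set, 160631_s_at, had signals of 19.1, 42.2 and 20.8 on MyoD arrays, 1.61, 0.907 and 1.79 on Myf5 arrays, 1.4, 1.3 and 1.07 on myogenin arrays, and 2.14, 1.95 and 2.05 on hrGFP arrays. Every MyoD array lay above all 9 others, and no array of the other 3 groups reached the filter signal of 15. On the log2 scale the mean was 5.12 ± 0.62 with MyoD and 3.07 ± 0.07 with hrGFP (SD, n = 3 each), a rise of 2.05 ± 0.34 (SE; limma adjusted p = 0.0181). The hrGFP signals lie under the added 6.33, so the size depends on it. The difference was 3.76 with no pseudocount, where signals under 1 were set to 1 (limma adjusted p = 0.259). It was 1.32 with a pseudocount of 16 (limma adjusted p = 0.0173). Against Myf5 the rise was 2.17 ± 0.34 (limma adjusted p = 0.0172), and against myogenin it was 2.21 ± 0.34 (limma adjusted p = 0.0235). The probe set passed the filter through its MyoD arrays alone, and its suffix marks probes that more than 1 transcript may match. The summed signal of the muscle markers was also highest on the MyoD arrays, though the mean of Ckm was lowest there, and the part of these markers in the result was not tested. In bulk RNA, fewer cells with a transcript and less of it per cell cannot be told apart.

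The difference of Sgca 160631_s_at from hrGFP stayed positive in all 23 alternatives that gave a value, and was called in 14 of them. Arrays of MyoD and hrGFP with the same number deviated together, as did those of unlike number in the first batch. In the fit that takes the number as a replicate block the difference was 2.05 (limma adjusted p = 0.108). It was 2.06 within the first batch (limma adjusted p = 0.317) and 2.18 without the MyoD and hrGFP arrays of high control ratios (limma adjusted p = 0.101). The call was also lost without array MyoD 4 (1.7, limma adjusted p = 0.0886), hrGFP 3 (2.02, limma adjusted p = 0.0837), hrGFP 4 (2.13, limma adjusted p = 0.0653) or hrGFP 5 (2.03, limma adjusted p = 0.0629). Of the single MyoD and hrGFP arrays, only leaving out MyoD 3 (limma adjusted p = 0.0358) or MyoD 5 (limma adjusted p = 0.0475) kept the call. The differences from Myf5 and from myogenin were called in 13 of 23 and 13 of 22 alternatives, and not without MyoD 4 (limma adjusted p = 0.0975 and 0.101). In each comparison the called alternatives include every run without an array of a group outside it, which leaves both compared groups whole.

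**Figure D1:**
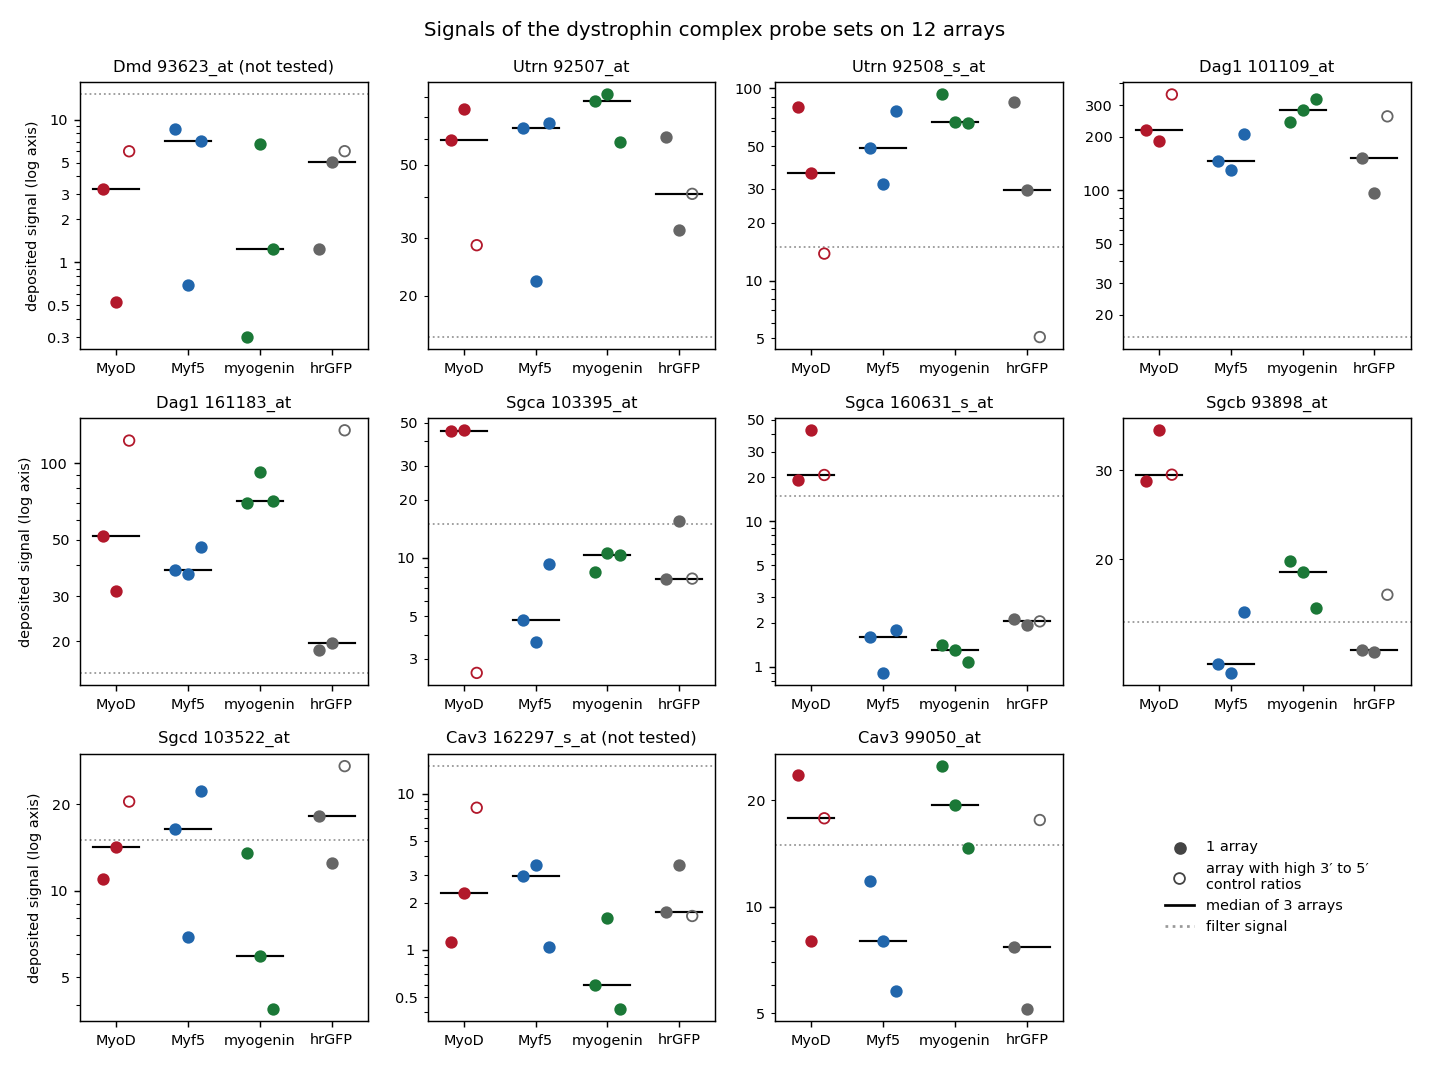
Deposited signal (log axis) of each of the 11 probe sets by group, with 1 point per array, the median of 3 arrays as a line and the filter signal of 15 dotted; open points are the arrays with high 3′ to 5′ control ratios. On Sgca 160631_s_at and Sgcb the 3 MyoD arrays lie above the 9 others, while Dmd and Cav3 162297_s_at stay under the filter signal on all 12 arrays.

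The second Sgca probe set, 103395_at, gave 45.1 and 45.7 on arrays MyoD 3 and 4 but 2.54 on MyoD 5. Its signals were 4.77, 3.65 and 9.24 with Myf5, 8.4, 10.6 and 10.3 with myogenin, and 7.79, 15.6 and 7.81 with hrGFP. So 2 MyoD arrays were higher than all others and the third, one of the 2 arrays with high control ratios, was the lowest of the 12. The difference from hrGFP was 0.81 ± 0.61 and did not pass (limma adjusted p = 1). Without MyoD 5 it was 1.69 ± 0.38 (limma adjusted p = 0.126), against Myf5 it was then 2.27 ± 0.38 and passed (limma adjusted p = 0.027), and against myogenin 1.96 ± 0.38 (limma adjusted p = 0.0913). The part of RNA quality in the low value was not tested. Over the 12 arrays the 2 Sgca probe sets had a Pearson correlation of 0.64.

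Sgcb, which codes for beta-sarcoglycan, had signals of 28.6, 36 and 29.4 on MyoD arrays, 12.4, 11.9 and 15.7 on Myf5 arrays, 19.8, 18.9 and 16 on myogenin arrays, and 13.2, 13.1 and 17 on hrGFP arrays. Again the 3 MyoD arrays lay above the 9 others. The mean was 5.33 ± 0.26 with MyoD and 4.47 ± 0.28 with hrGFP (SD, n = 3 each), a difference of 0.87 ± 0.25 with a 95% interval of 1.25 to 2.66 in fold, which did not pass (limma adjusted p = 0.503). The difference was 1.03 ± 0.25 against Myf5 (limma adjusted p = 0.313) and 0.88 ± 0.25 against myogenin (limma adjusted p = 0.179). Without the MyoD and hrGFP arrays of high control ratios it was 0.95 against hrGFP, and 0.92 within the first batch. Myf5 and myogenin differed from hrGFP by -0.17 ± 0.25 and -0.01 ± 0.25.

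Sgcd, which codes for delta-sarcoglycan, ordered the groups differently. Its signals were 11, 14.2 and 20.4 with MyoD, 16.4, 6.9 and 22.2 with Myf5, 13.5, 5.9 and 3.88 with myogenin, and 18.2, 12.5 and 27.1 with hrGFP. Signals of all groups overlapped. After normalization the myogenin arrays lay below the hrGFP arrays, with means of 3.67 ± 0.46 and 4.72 ± 0.27 (SD, n = 3 each). Myogenin differed from hrGFP by -1.05 ± 0.32 (limma adjusted p = 0.257), MyoD by -0.22 ± 0.32 and Myf5 by -0.4 ± 0.32, and 0 of these passed. The myogenin arrays form a batch of their own, so in every comparison with them batch and factor cannot be told apart.

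**Figure D2:**
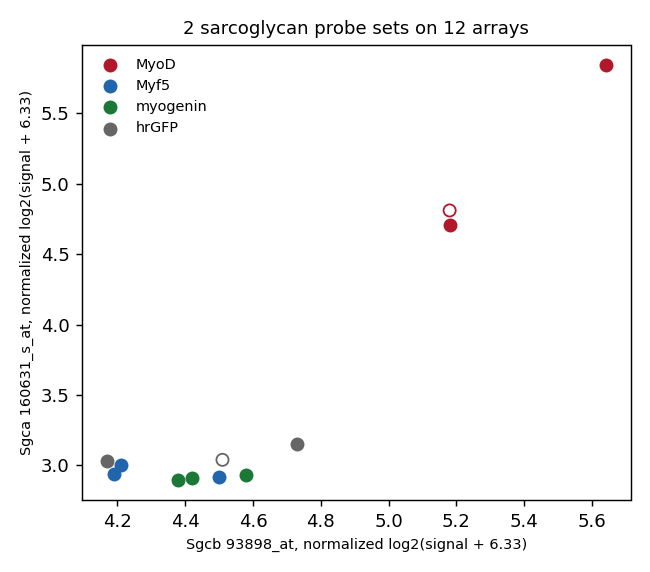
Normalized log2(signal + 6.33) of Sgca 160631_s_at (vertical) against Sgcb 93898_at (horizontal), 1 point per array coloured by group; open points are the arrays with high 3′ to 5′ control ratios. The 3 MyoD arrays lie apart at high values of both, and among the 9 other arrays Sgca stays between 2.9 and 3.15 while Sgcb runs from 4.17 to 4.73.

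MyoD, Myf5 and myogenin bind DNA at E-boxes, written CANNTG. The 250 bases before the RefSeq start of 4 members are shown, those of the 3 sarcoglycan genes and that of Cav3, whose window holds CAGCTG. They come from RefSeq on build GRCm38.p6, are written 5′ to 3′ on the gene's strand, and carry each CANNTG in capitals. The windows are chr11:94976328-94976577 for Sgca, chr5:73647738-73647987 for Sgcb and chr11:47379326-47379575 for Sgcd, all on the minus strand, and chr6:112459255-112459504 for Cav3 on the plus strand.
Sgca: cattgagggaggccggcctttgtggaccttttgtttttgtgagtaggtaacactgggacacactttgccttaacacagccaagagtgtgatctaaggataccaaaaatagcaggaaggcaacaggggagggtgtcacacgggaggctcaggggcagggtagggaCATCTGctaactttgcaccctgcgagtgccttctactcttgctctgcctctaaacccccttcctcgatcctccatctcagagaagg
Sgcb: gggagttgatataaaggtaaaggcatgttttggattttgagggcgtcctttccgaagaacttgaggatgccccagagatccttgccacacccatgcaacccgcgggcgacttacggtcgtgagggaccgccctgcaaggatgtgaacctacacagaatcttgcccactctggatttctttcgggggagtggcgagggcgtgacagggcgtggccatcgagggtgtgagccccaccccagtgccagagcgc
Sgcd: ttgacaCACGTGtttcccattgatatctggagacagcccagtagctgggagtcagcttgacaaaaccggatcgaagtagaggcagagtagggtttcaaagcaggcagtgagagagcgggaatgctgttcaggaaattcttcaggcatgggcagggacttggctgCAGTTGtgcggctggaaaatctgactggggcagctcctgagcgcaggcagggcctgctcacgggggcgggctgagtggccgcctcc
Cav3: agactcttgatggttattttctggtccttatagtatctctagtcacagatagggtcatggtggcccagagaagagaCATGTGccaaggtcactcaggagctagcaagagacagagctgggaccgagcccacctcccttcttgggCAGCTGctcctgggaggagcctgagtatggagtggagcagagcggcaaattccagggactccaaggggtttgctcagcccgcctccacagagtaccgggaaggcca
The Sgca window held 1 E-box, which starts at position -86 from the RefSeq start, and the Sgcb window held 0. The Sgcd and Cav3 windows held 2 each. Of the member windows not shown, that of Utrn held 7, where 12.2% of all windows held 3 or more. Those of Dmd held 2 and 0, those of Dag1 1 each and those of Dysf 0 each. The motif reads the same on both strands, overlapping matches were counted apart, and 66.2% of all 32851 promoter windows of 250 bases held at least 1. CAGCTG, a form bound by MyoD, was in the Cav3 window, alone among the 11 windows of the 8 members, and in 13% of all windows. The Cav3 window is shown because of this match. A match describes these letters and says nothing of binding.

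Dag1 codes for dystroglycan, the link to laminin. On 101109_at it had signals of 217, 189 and 345 with MyoD, 146, 130 and 207 with Myf5, 242, 281 and 325 with myogenin, and 152, 96.9 and 260 with hrGFP. After normalization the means were 7.96 ± 0.07 with MyoD, 7.32 ± 0.29 with Myf5, 8.16 ± 0.29 with myogenin and 7.4 ± 0.26 with hrGFP (SD, n = 3 each). All MyoD and all myogenin arrays then lay above all Myf5 and all hrGFP arrays. The difference from hrGFP was 0.56 ± 0.23 with MyoD (limma adjusted p = 1), 0.76 ± 0.23 with myogenin (limma adjusted p = 0.26) and -0.08 ± 0.23 with Myf5, and Myf5 against myogenin gave -0.84 ± 0.23 (limma adjusted p = 0.318). The other Dag1 probe set, 161183_at, gave 123 and 135 on the MyoD and hrGFP arrays of high control ratios and 18.5 to 92.3 on the 10 others. Its differences from hrGFP were 0.54 ± 0.5 with MyoD, -0.02 ± 0.5 with Myf5 and 0.74 ± 0.5 with myogenin. Without hrGFP 5 they were 1.2, 0.65 and 1.4, and without both arrays of high ratios 0.83, 0.65 and 1.38, with 0 under the threshold (lowest limma adjusted p = 0.05).

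Utrn, which codes for utrophin, had signals of 59.5, 73.7 and 28.5 with MyoD, 64.8, 22.2 and 66.8 with Myf5, 78, 81.7 and 58.8 with myogenin, and 60.7, 31.6 and 40.8 with hrGFP on 92507_at. On 92508_s_at the MyoD and hrGFP arrays of high control ratios gave 13.8 and 5.08, and the 10 others 29.7 to 92.8. So the lowest 2 values of this probe set were those of the arrays with high ratios, where Dag1 161183_at had its highest. Against hrGFP the 2 probe sets differed by 0.21 ± 0.34 and 0.33 ± 0.65 with MyoD, -0.08 ± 0.34 and 0.55 ± 0.65 with Myf5, and 0.43 ± 0.34 and 1.03 ± 0.65 with myogenin. By limma 0 of these passed. The differences of 92508_s_at rest on hrGFP 5: without it they were -0.51 with MyoD, -0.3 with Myf5 and 0.18 with myogenin. With myogenin the value was 0.17 without both arrays of high ratios and 0 with the replicate block. The 95% interval of 92507_at with MyoD against hrGFP was 0.694 to 1.94 in fold.

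Cav3, which codes for caveolin-3, had signals of 23.6, 7.99 and 17.8 with MyoD, 11.8, 8 and 5.79 with Myf5, 25, 19.4 and 14.7 with myogenin, and 7.68, 5.15 and 17.6 with hrGFP on 99050_at. MyoD and myogenin had equal means of 4.53, against 3.9 with Myf5 and 4 with hrGFP, but their arrays overlapped those of hrGFP. The differences from hrGFP were 0.53 ± 0.36 with MyoD, -0.09 ± 0.36 with Myf5 and 0.53 ± 0.36 with myogenin. By limma 0 of these passed. Its other probe set, 162297_s_at, ran from 0.421 to 8.13 over the 12 arrays and was not tested. Dmd, the dystrophin gene itself, was also under the filter signal on every array: its probe set 93623_at gave 3.25, 0.524 and 6 with MyoD, 8.53, 0.698 and 7.07 with Myf5, 0.3, 6.8 and 1.24 with myogenin, and 1.24, 5.08 and 6.01 with hrGFP. No group of Dmd stood apart from another, and at such signals a fall or a small change was not detectable.

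Of the 9 tested member probe sets, 1 was called for MyoD against hrGFP, where 0.412% of all probe sets were called, and 3 had an unadjusted limma p under 0.05, where 3.55% of all had. These were Sgca 160631_s_at, Sgcb and Dag1 101109_at. For Myf5 against hrGFP limma called 0 of 9, where 0.0118% of all were called, and 0 had an unadjusted p under 0.05, where 3.01% of all had. Myogenin against hrGFP had 0 of 9 called by limma, where 0.13% of all were called, and 2 at an unadjusted p under 0.05, Dag1 101109_at and Sgcd, where 11.5% of all had. MyoD against Myf5 had 1 of 9 called (0.224% of all) and 4 at an unadjusted limma p under 0.05 (3.71% of all). MyoD against myogenin had 1 of 9 called (0.412% of all) and 3 at an unadjusted limma p under 0.05 (13.8% of all), and the call was the same Sgca probe set in both. Myf5 against myogenin had 0 of 9 called by limma (0.0354% of all) and 1 at an unadjusted p under 0.05 (9.18% of all). The median difference from hrGFP over the 9 was 0.54 with MyoD, -0.09 with Myf5 and 0.43 with myogenin, beside -0.01, -0.03 and -0.01 over all 8485. These 3 comparisons share their hrGFP arrays, and 1 of the 9 probe sets passed the filter only through the group where it is high.

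**Figure D3:**
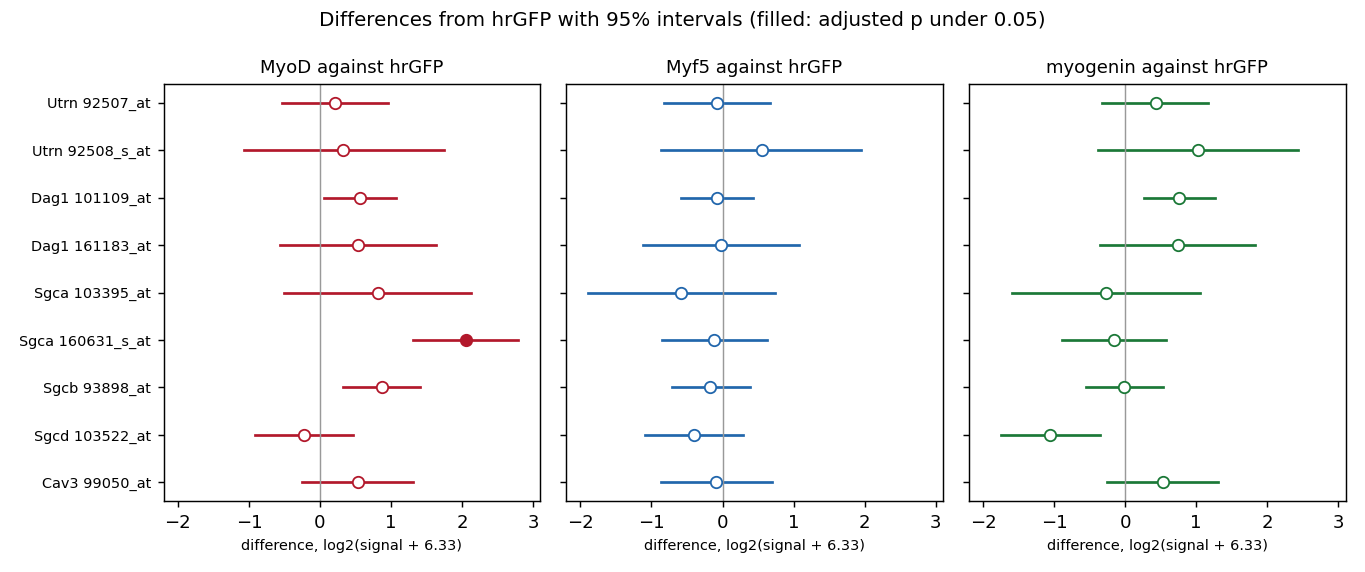
Difference from hrGFP in normalized log2(signal + 6.33) (horizontal) of the 9 tested probe sets for each factor, with 95% intervals; a filled point is called. Sgca 160631_s_at with MyoD, at 2.05, is the filled point. The intervals of Sgcb with MyoD and of Dag1 101109_at with MyoD and with myogenin lie above 0 without a call. That of Sgcd with myogenin lies below 0, also without a call.

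Among the genes around the complex, limma called 1 against hrGFP, Itga7. Of 13 other subunits listed, 7 were on the array, 3 passed the filter and 0 were called against hrGFP: the epsilon-sarcoglycan gene Sgce differed from hrGFP by -0.3 with MyoD and -0.39 with Myf5, and by -0.47 with myogenin. Sarcospan, Sspn, differed by 0.07, -0.38 and -0.31 in the same order, and dystrobrevin alpha, Dtna, by -0.23, 0.13 and 0.17. Their median was -0.23 with MyoD, -0.38 with Myf5 and -0.31 with myogenin. Among 12 tested ligands of dystroglycan and their partners in the basement membrane 0 were called against hrGFP, with medians of 0.01, -0.08 and 0.24 in the same order. The largest differences were those of the perlecan gene Hspg2 (-0.81) and the agrin gene Agrn (0.75) with MyoD, of the nidogen gene Nid1 (-0.81) and the biglycan gene Bgn (0.67) with Myf5, and of the laminin chain gene Lama4 (1.31, limma adjusted p = 0.145) and Bgn (1.11) with myogenin. Hspg2 was called for MyoD against myogenin, with a difference of -1.66 ± 0.31 (limma adjusted p = 0.048), where batch and factor cannot be told apart. The part of the fibroblast markers in the myogenin values of Dag1 and Lama4 was not tested. Of 17 genes of dystroglycan glycosylation listed, only 5 were on the array and tested, so most of the list was not measured. By limma 0 of the 5 were called against hrGFP, with Pomgnt1, a glycosyltransferase, at -0.47, 1.04 and 0.9 with MyoD, Myf5 and myogenin. The list's medians were -0.05, 0.24 and 0.12, and the hrGFP arrays of Pomgnt1 had an SD of 1.86.

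Of 16 genes of membrane repair listed, 12 were on the array and tested. Of these 0 were called against hrGFP, with medians of -0.23 with MyoD, -0.1 with Myf5 and -0.12 with myogenin. The annexin gene Anxa5, whose product binds exposed phospholipid, differed by -0.5 ± 0.14 with MyoD (limma adjusted p = 0.5), -0.25 ± 0.14 with Myf5 and -0.65 ± 0.14 with myogenin (limma adjusted p = 0.109). Anxa6, another annexin gene, had differences of the opposite sign, 0.75 ± 0.54 with MyoD, 0.97 ± 0.54 with Myf5 and 0.65 ± 0.54 with myogenin, none called by limma. Ehd1, an ATPase of membrane recycling, differed by -0.12 with MyoD and 1.07 with Myf5, and by 0.92 with myogenin, and Syt7, a calcium sensor of vesicle fusion, by -0.69, -0.73 and -0.82 in the same order. The calpain gene Capn1 differed by -0.02, 0.95 and 0.96 in that order. The hrGFP arrays of Ehd1 and those of Capn1 each had an SD of 2.02. Of 12 caveolar genes listed, 6 were on the array and tested, and 0 were called against hrGFP. Cavin3, a coat protein gene of caveolae, differed by -1 ± 0.34 with MyoD (limma adjusted p = 0.865), -0.93 ± 0.34 with Myf5 and -1.1 ± 0.34 with myogenin. Cavin1 differed by -0.13, 0.47 and 1.02 in the order MyoD, Myf5 and myogenin, and Cav1 by 0.38, -0.42 and 0.97. With myogenin both thus went the other way from Cavin3. The medians of the caveolar list were -0.17, 0.05 and 0.28 in that order, and those of the costamere list 0.05, 0.04 and 0.32. Of the 24 genes of the costamere list, which holds the proteins that couple the sarcomere to the membrane, 11 were tested. The list had 1 call of 11 against hrGFP with MyoD and 1 of 11 with myogenin, both for Itga7, the muscle laminin receptor. Itga7 rose by 1.98 ± 0.25 with MyoD (limma adjusted p = 0.00291) and by 2.2 ± 0.25 with myogenin (limma adjusted p = 0.0038), and with Myf5 it differed by 1.37 ± 0.25 without passing (limma adjusted p = 0.244). The desmin gene Des, for the intermediate filament at costameres, differed by 0.92, 0.48 and 0.67 in the order MyoD, Myf5 and myogenin, with 0 calls.

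**Figure D4:**
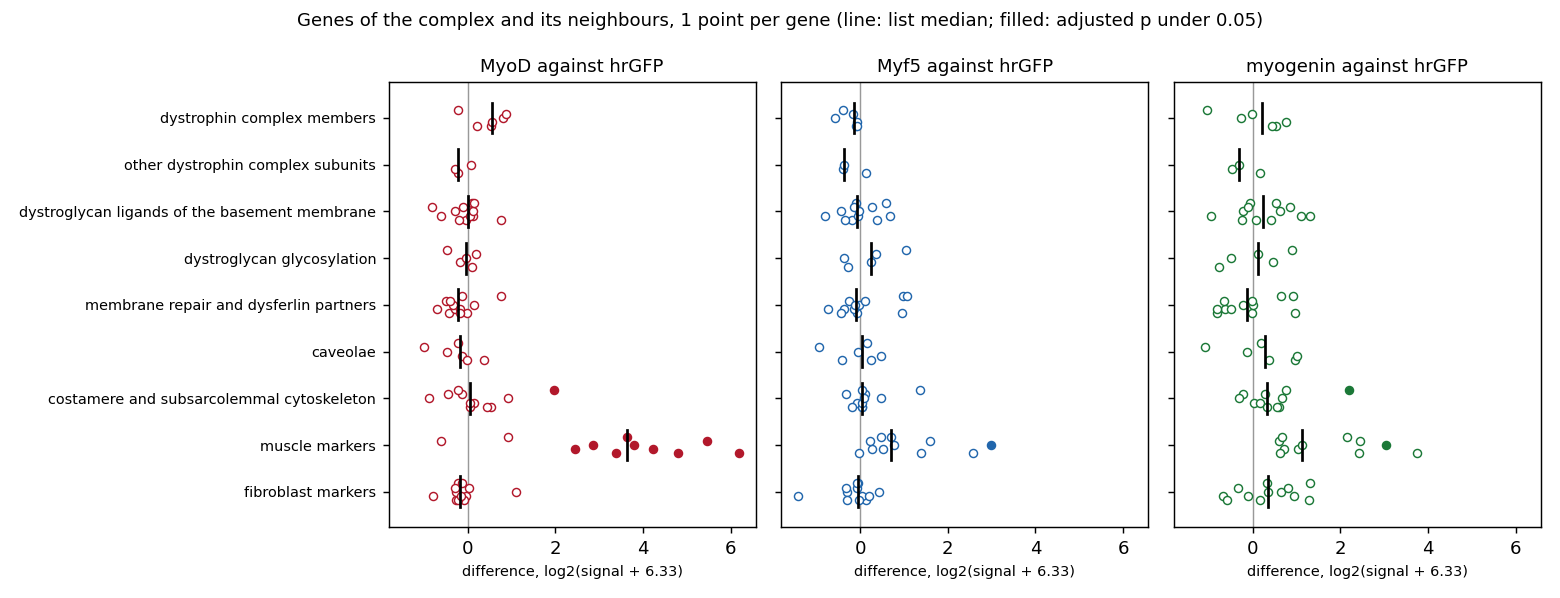
Difference from hrGFP in normalized log2(signal + 6.33) (horizontal) for genes of 9 lists, 1 point per gene by its probe set of highest mean, the list median as a line and called genes filled. Sgca stands there by 103395_at, which was not called, and Itga7 is the filled point among the lists of the complex and its neighbours, at 1.98 with MyoD and 2.2 with myogenin, while 9 of the 11 muscle markers are filled with MyoD.

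The patterns most like each member over the 12 arrays were found by Pearson correlation of normalized values, given here as a description. The arrays of a group share their treatment and, in part, their batch. Sgcb was nearest to Sgca 160631_s_at (0.94) and to Smyd1, a muscle methyltransferase gene (0.92). Over the 9 arrays without MyoD these were 0.32 and -0.05, so the likeness rests on the MyoD arrays. Sgca 103395_at was nearest to the potassium channel gene Kcnn1 (0.9) and to Cdh15, the M-cadherin of muscle cells (0.84), with 0.51 and 0.42 without MyoD. For 4 other genes the correlations without MyoD were 0.78 or higher. Dag1 was nearest to the kinase gene Dapk2 (0.94, and 0.97 without MyoD) and Hopx (0.89, 0.94), Utrn to Arf3 (0.9, 0.9) and Lst1 (0.89, 0.78), Sgcd to Mob1b (0.91, 0.92) and Tbcel (0.91, 0.91), and Cav3 to Btg2 (0.85, 0.84) and Baz2a (0.85, 0.84).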

How the data were processed

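The deposited values are intensity signals, 1 per probe set and array, made by the authors; the submitters' processing notes name MAS5. The sources used here do not give its version, scaling or detection calls. Mean signals trimmed by 2% on both sides lay between 41.4 and 103, so the arrays had no common level. After leaving out 66 array controls, 6.33 (the 25th percentile) was added, log2 was taken and arrays were quantile-normalized in limma 3.58.1 under R 4.3.3. Probe sets above 15 (the 40th percentile) in at least 3 arrays entered 1 linear model with a mean per group over 12 arrays and a variance trend, for 6 comparisons. In the lists each gene stands for its brightest probe set on average. The number of arrays limits the precision. Of the probe sets, 10833 had 1 symbol. The script was tested on simulated data.

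Members and lists were chosen with earlier results of these data known. All member probe sets were named. Per list, called genes and some, not all, of the largest differences from hrGFP were named. The 2 most correlated genes per member were named too. Deviations from group means of arrays with the same replicate number correlated at 0.394 to 0.827 for MyoD with hrGFP. For Myf5 with hrGFP they did at 0.107 to 0.332, so every pair was above 0.1. The numbers were therefore treated as a possible pairing, in a replicate block. The 0.827 was that of MyoD 5 with hrGFP 5, the arrays of high control ratios. In the first batch unlike-numbered MyoD and hrGFP arrays also correlated, at 0.366 and 0.483. Across batches Myf5 5 with hrGFP 3 did at 0.151. These values thus do not settle whether the numbers pair the arrays. For MyoD with Myf5 and for myogenin the correlations of like-numbered arrays were not taken as pairing. The replicate block was 1 fit over all groups, though, and tied their arrays of the same number too. The main model leaves the numbers out, also for MyoD against hrGFP. With the block the called Sgca probe set lost its call in that comparison (limma adjusted p = 0.108). Alternatives covered the pseudocount, filter, normalization, block, batch, variance model and arrays. In the run with no pseudocount, signals under 1 were set to 1 before log2 was taken.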

Additional observations from a re-analysis of the deposited data

Results flagged for a closer look

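The factors were compared directly on Sgca 160631_s_at. MyoD against Myf5 gave 2.17 ± 0.34 (limma adjusted p = 0.0172) and MyoD against myogenin 2.21 ± 0.34 (limma adjusted p = 0.0235), with the 3 MyoD arrays above the 3 others in both. The probe set passed the filter through the MyoD arrays alone, and the signals of 0.907 to 2.14 on the 9 other arrays lie under the added 6.33, which makes their spread on this scale small. With no pseudocount the differences were 4.41 (limma adjusted p = 0.194) and 4.51 (limma adjusted p = 0.1). Over their alternatives the adjusted p ran from 0.00359 to 0.352 and from 0.00368 to 0.999.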

How the results depend on the processing

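The direction of the Sgca 160631_s_at difference held in every alternative that gave a value, 23 against hrGFP, 23 against Myf5 and 22 against myogenin, while its call did not. Against hrGFP the count of called member probe sets was 0 with no pseudocount, with a stricter filter (which removed this probe set), with the replicate block, within batch 1, with the arrays of the 2 groups alone and without MyoD 5 and hrGFP 5 together, and 0 to 1 when single arrays were left out. Against Myf5 it was 0 in the first 5 of these, and 0 to 2 over single arrays, the 2 without MyoD 5. Against myogenin it was 0 with no pseudocount, the stricter filter, the replicate block, the batch as a random block and the 2 groups alone, 2 without MyoD 5 and hrGFP 5 together, and 0 to 1 over single arrays. With the replicate block the difference was 2.05 against hrGFP (limma adjusted p = 0.108), 2.17 against Myf5 (limma adjusted p = 0.12) and 2.07 against myogenin (limma adjusted p = 0.999), where 1 number is shared. The block changed no call of another member. Against Myf5 the call was lost without MyoD 3 or 4, without any Myf5 array, and without MyoD 5 and hrGFP 5 together (2.32, limma adjusted p = 0.0617), where the 1 called member was Sgca 103395_at (2.26, limma adjusted p = 0.0203), and against myogenin without MyoD 4 or 5 or any myogenin array; the cause was not tested.

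Differences that did not pass changed sign as follows. Without normalization Myf5 against hrGFP gave 0.1 for Utrn 92507_at, 0.01 for Dag1 101109_at and 0.05 for Dag1 161183_at, and the last was 0.04 with no pseudocount. Within batch 1 it gave -0.35 for Utrn 92508_s_at, 0.09 and 0.74 for the Dag1 probe sets in the same order and 0.39 for Cav3 99050_at, and without MyoD 5 and hrGFP 5 together -0.29, 0.03, 0.65 and 0.18. Myogenin against hrGFP gave for Sgcb 0.24 without normalization, 0.15 scaled to a common trimmed mean, 0.13 with the replicate block and 0.01 without both arrays. Leaving out single arrays, MyoD against hrGFP ran over -0.1 to 0.61 and -0.51 to 0.9 for the Utrn probe sets, Myf5 against hrGFP over -0.25 to 0.13 and -0.3 to 1.09 for these, -0.24 to 0.03 and -0.54 to 0.65 for the Dag1 probe sets and -0.24 to 0.18 for Cav3 99050_at, and myogenin against hrGFP over -0.49 to 0.13 for Sgca 103395_at and -0.16 to 0.12 for Sgcb. Signals near or under 15 limit Sgca, Sgcb, Sgcd, Cav3 and Dmd.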
